A study of Mus musculus with 2 samples.

Results

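Vascular and mesenchymal miRNA genes are a group of 9 genes known from endothelial cells, which line blood vessels, from the mural cells around them (smooth muscle cells and pericytes), and from mesenchymal cells such as fibroblasts and those of the meninges. They are Mir126a, Mir143, Mir145a, Mir199a-1, Mir199a-2, Mir199b, Mir214, Mir221 and Mir222. They were chosen by symbol, from what is known of them, and matched by gene identifier. All 9 have a row among the 1973 miRNA genes of the tables. Their counts did not set the choice, but earlier results of these data were known when it was made. The samples were 2 microRNA-seq libraries of whole mouse forebrain at embryonic day 16.5, from total RNA of B6NCrl embryos of both sexes, pooled and untreated as far as the labels say. Replicate 2 was a pool of 41 embryos, and the labels give no number for the pool of replicate 1. Both libraries belong to 1 group with no control, so the data give levels in a bulk tissue and the spread between 2 pools.

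A microRNA (miRNA) is a short RNA cut from a hairpin precursor. Loaded into an Argonaute protein, it pairs with messenger RNAs mainly through its seed, bases 2 to 8, and lowers their output. In the embryonic brain, vessels grow inward from a plexus on the surface and are covered by pericytes, while the meninges hold fibroblasts outside the neural tissue. Mir126a supports the response of endothelial cells to vascular growth factors, Mir143 and Mir145a promote the contractile state of smooth muscle, and the Mir199 and Mir214 genes are transcribed in mesenchyme. Mir221 and Mir222 act on proliferation in endothelial, smooth muscle and other cells, by targeting cell-cycle inhibitors and the receptor Kit among others.

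Mature sequences from RefSeq (GRCm38.p6) are shown with the seed in capitals. The shared seeds and shared whole sequences decide how the counts can be read. RefSeq also holds miR-214-5p and miR-221-5p, which are not shown. The RefSeq table gave a precursor for 7 of the 9 genes, all but Mir143 and Mir145a. The counts are per gene and do not tell its arms apart.
miR-126a-3p: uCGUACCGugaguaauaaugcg
miR-199a-5p: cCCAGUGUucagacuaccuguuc
miR-199a-3p and miR-199b-3p: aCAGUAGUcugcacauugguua
miR-214-3p: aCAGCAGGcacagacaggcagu
miR-221-3p: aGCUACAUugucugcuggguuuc
miR-222-3p: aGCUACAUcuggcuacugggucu

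miR-221-3p and miR-222-3p had the same seed and the same first 8 bases, and 11 of their 23 positions were identical. The seed of miR-126a-3p was found in no other mature miRNA among the 1738 in the RefSeq table. The seed of miR-214-3p was shared with miR-761 and that of miR-221-3p and miR-222-3p with miR-1928. Mir761 and Mir1928 were both at 0 counts in the 2 libraries. In CPM, counts per 1000000 counts on the strand of the annotated genes, a count of 0 was taken to allow a level of about 3 counts, 0.593 CPM in replicate 1 and 0.721 CPM in replicate 2. This is a one-sided limit, and the two-sided exact 95% interval for 0 counts in replicate 1 reaches 0.729 CPM.

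The 3 Mir199 genes could not be separated by most of their mature sequence. miR-199a-3p and miR-199b-3p are the same 22 bases, held by the precursors of Mir199a-1, Mir199a-2 and Mir199b. miR-199a-5p is held by the precursors of Mir199a-1 and Mir199a-2. Mir199b differs from it on that arm by 1 substitution, C10U, counted from 1 at the 5′ end of miR-199a-5p. The stretch of Mir199b (chr2:32318485-32318507, plus strand) is shown with the differing base in capitals.
Mir199b, 5′ arm: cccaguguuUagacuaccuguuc

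That stretch occurred in the Mir199b precursor alone among 1005 precursors. Of all stretches of 22 bases, 26.5% of those in the Mir199a-1 precursor, 13.5% in Mir199a-2 and 8.99% in Mir199b were found in another precursor, and none of those in Mir126a, Mir214, Mir221 or Mir222. Multi-mapping reads have a row of their own in each table, 5506866 reads in replicate 1 and 4752799 in replicate 2, and are not assigned to genes, so the counts of the Mir199 genes are uncertain and set no upper limit on the level of the miRNAs.

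**Figure D1:**
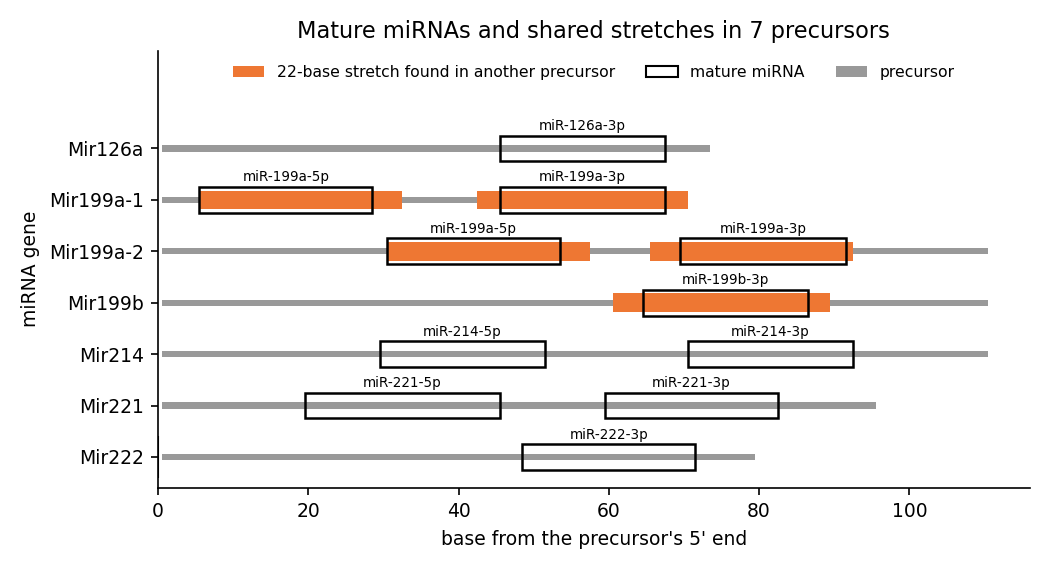
Precursors of the 7 genes with a RefSeq entry, drawn by base from the 5′ end (grey bars), with mature miRNAs (black frames) and stretches of 22 bases that occur in another precursor (orange). Both mature arms of Mir199a-1 and Mir199a-2 and the 3′ arm of Mir199b lie wholly in shared stretches, while the other 4 precursors have none.

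The libraries held 5060112 gene-strand counts in replicate 1 and 4158686 in replicate 2. Together the 9 genes took 2.14% of them in replicate 1 (exact Clopper-Pearson 95% interval 2.12% to 2.15%) and 2.41% in replicate 2 (2.400% to 2.43%), a mean of 2.28% ± 0.197 (SD, n = 2). Mir126a supplied 77.7% and 78.7% of the group's counts and Mir143 19.3% and 18.05%, in the same order of libraries. The other 7 genes shared the remainder. These intervals hold counting error alone, as the labels describe no molecular identifiers. Fewer cells of a type and less of an miRNA per cell cannot be told apart in bulk tissue.

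Mir126a, the endothelial gene, stood far above the rest. It had 84053 counts in replicate 1 and 79012 in replicate 2, or 16611 CPM and 18999 CPM (17805 ± 1689, SD, n = 2). It ranked 12 among the 703 genes with a count in either library. Multi-mapping reads, 40.5% of all reads in replicate 1 and 43.3% in replicate 2, are in no gene's count. All ranks given here are therefore by uniquely placed reads, and genes with shared sequences can rank too low. Mir126a lies at chr2:26591357-26591429 on the plus strand (mm10), within an exon of an Egfl7 transcript by GENCODE M21. Egfl7 encodes a protein secreted by endothelial cells. An intron of the overlapping gene model Gm20532 also covers it. The precursor is shown with miR-126a-3p, its bases 46 to 67, in capitals.
Mir126a precursor: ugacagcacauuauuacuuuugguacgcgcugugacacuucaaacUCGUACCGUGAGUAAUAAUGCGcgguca

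The genes nearest to Mir126a in log2(CPM + 1) over the 2 libraries were Mir26b, at 15945 and 16508 CPM, Mir93, at 15234 and 14849 CPM, and Mir99b, at 22345 and 19505 CPM. With 2 libraries this likeness is one of level.

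Mir143 was the second gene of the group, at 4127 CPM (20881 counts) in replicate 1 and 4357 CPM (18119 counts) in replicate 2, and ranked 41. Its mean level was lower than that of Mir126a by a factor of 4.20. Mir145a, its neighbour on the minus strand of chromosome 18, stood at 67.2 CPM (340 counts) and 82.96 CPM (345 counts), rank 211. Mir143 spans 61649196 to 61649258 and Mir145a 61647825 to 61647894, and neither overlaps another annotated gene. Carmn, a long non-coding RNA of smooth muscle, ends 366 bases upstream of Mir143. Mir145a had 1.63 counts per 100 of Mir143 in replicate 1 and 1.904 in replicate 2, so Mir143 was 61.4 and 52.5 times higher. These genes of 1 locus therefore had very unequal counts in both libraries. Neither had a precursor in the RefSeq table, so stretches shared with other loci were not checked for this pair.

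Mir214 and Mir199a-2 are both exonic in Dnm3os, a non-coding RNA of mesenchyme transcribed against Dnm3, and lie in an intron of Dnm3 on the other strand. Mir214 (chr1:162223368-162223477) had 149 CPM (756 counts) in replicate 1 and 269 CPM (1119 counts) in replicate 2, rank 160. Mir199a-2 (chr1:162217814-162217923) had 4.55 CPM (23 counts) and 7.21 CPM (30 counts), rank 326. Mir199a-2 had 3.04 counts per 100 of Mir214 in replicate 1 and 2.68 in replicate 2, where both mature arms of Mir199a-2 are shared with other loci and those of Mir214 are not.

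Mir199b (chr2:32318460-32318569), against an intron of Dnm1, had 53.95 CPM (273 counts) in replicate 1 and 80.8 CPM (336 counts) in replicate 2, rank 218. Gm23363, an annotated miRNA gene whose start lies 195 bases away on the same strand, had 0 counts in both libraries. Mir199a-1 (chr9:21496495-21496564, minus strand), against an intron of Dnm2, had 0 counts in replicate 1 and 4 counts, 0.962 CPM, in replicate 2. The 3 Mir199 genes thus each lie opposite a gene for a dynamin, a GTPase of membrane fission. Together they had 58.5 CPM and 88.97 CPM of uniquely placed reads. The gene with an arm of its own had more counts than the others in both libraries.

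Mir221 and Mir222 lie 599 bases apart by their starts on the minus strand of chromosome X, and no other annotated gene overlaps them. Mir221 (chrX:19146294-19146388) had 225 CPM (1138 counts) in replicate 1 and 227 CPM (945 counts) in replicate 2, rank 153. Mir222 (chrX:19146893-19146971) had 127 CPM (643 counts) and 119.99 CPM (499 counts), rank 187. Mir222 had 56.5 counts per 100 of Mir221 in replicate 1 and 52.8 in replicate 2. Of the 3 neighbouring pairs, these genes had the most even counts.

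**Figure D2:**
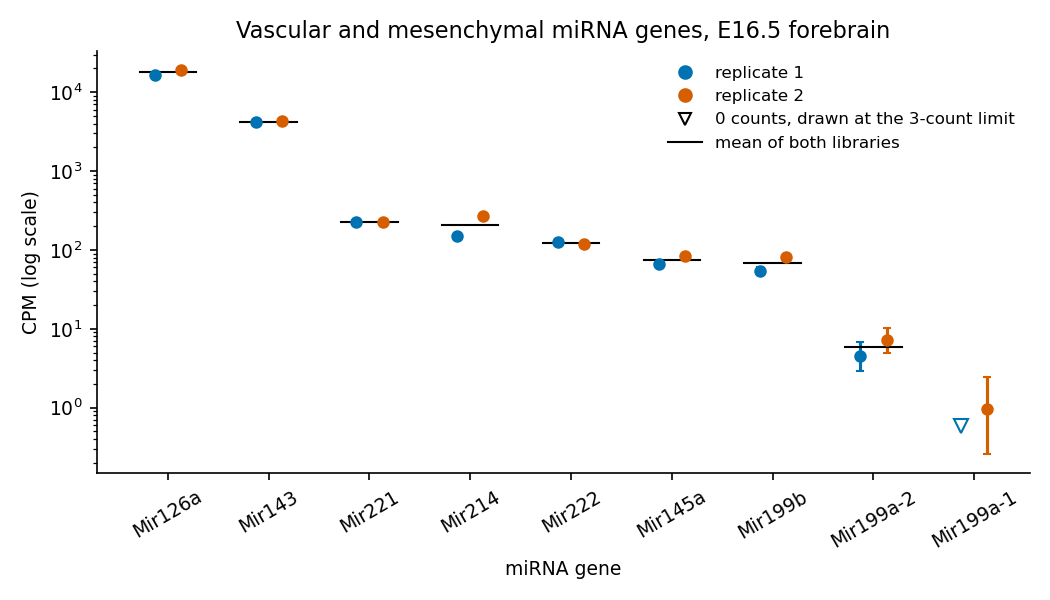
CPM of each gene in replicate 1 (blue) and replicate 2 (orange) on a log scale, with exact 95% intervals of counting error and the mean as a line. The genes span from 17805 CPM for Mir126a to under 1 CPM for Mir199a-1, whose 0 count in replicate 1 is drawn at the level of 3 counts.

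From highest to lowest mean CPM the order was Mir126a, Mir143, Mir221, Mir214, Mir222, Mir145a, Mir199b, Mir199a-2 and Mir199a-1. The ranges of the 2 libraries overlapped for Mir221 and Mir214 and for Mir145a and Mir199b, so the order within those neighbours is not beyond their spread. The other neighbours did not overlap. Mir143 exceeded Mir221 by a factor of 18.8, the widest step in the order. CPM is not divided by length, since reads of small RNA span a mature miRNA of similar length in every gene. Divided by gene length instead, all 9 genes kept their place in the order.

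**Figure D3:**
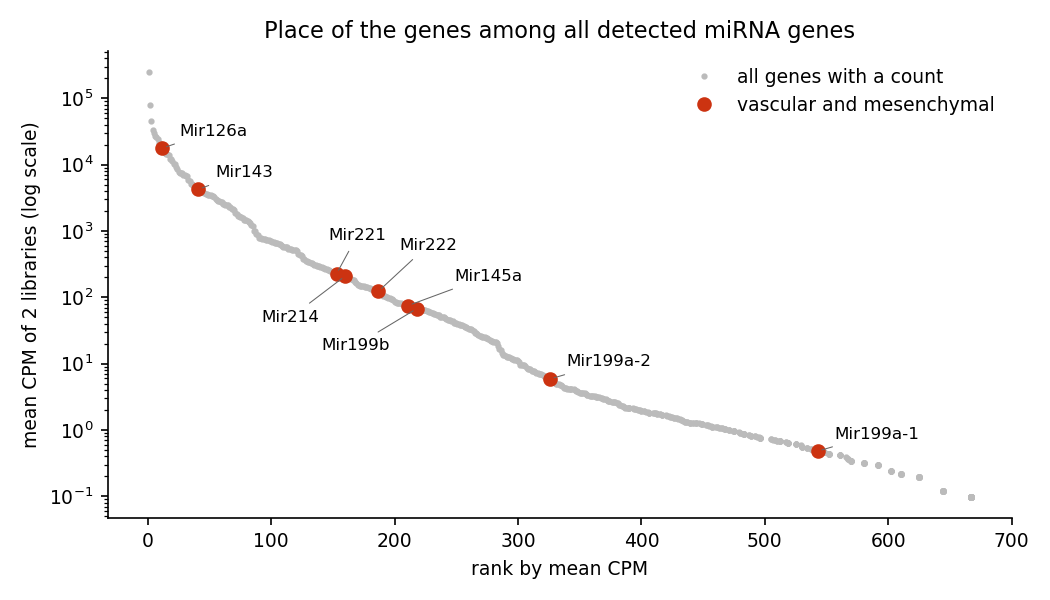
Mean CPM of 2 libraries on a log scale against rank for all 703 genes with a count (grey), with the 9 genes in red. Mir126a and Mir143 lie at ranks 12 and 41, 5 genes lie between ranks 153 and 218, and Mir199a-2 and Mir199a-1 lie at 326 and 543. Ranks are by uniquely placed reads, so genes with shared sequences can rank too low.

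The group was higher in replicate 2 in most of its genes, and Mir214 differed most. The counts of the libraries were compared gene by gene with a two-sided exact binomial test over all 466 genes with at least 10 counts in sum, with library totals adjusted by TMM, a trimmed-mean scaling that assumes most genes alike. Mir199a-1 had too few counts for the test. Of the 8 genes of the group that were tested, 6 were called higher in replicate 2 at an adjusted p under 0.05 and 0 lower. Of all tested genes, 23.4% were called higher, 21.9% lower and 45.3% either way. Such calls depend on depth, and these shares are not matched in depth to the group. Its tested genes other than Mir199a-2 had at least 609 counts in sum, against the minimum of 10 for testing. The median log2 ratio of replicate 2 to replicate 1 was 0.39 over the group and 0.01 over all tested genes. The test describes 2 libraries, takes reads as independent and does not allow for the spread between pools.

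Mir214 had a log2 ratio of 0.99 (95% interval 0.86 to 1.13, adjusted p = 1.62e-48 by the exact binomial test), the second highest among the 273 genes that reached 100 counts in each library. The middle 90% of those genes lay between -0.64 and 0.63. Mir199b had 0.73 (0.49 to 0.96, adjusted p = 2.60e-09 by the exact binomial test) and ranked 8 of the 273. Mir199a-2, on the same transcript as Mir214, had 0.80 with a wide interval from -0.02 to 1.66 and was not called (adjusted p = 0.104). The whole interval of Mir214 thus lay above the middle 90% of those genes. The ratio of Mir199b lay above it too, but its interval, like that of Mir199a-2, reached into that range.

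The other genes moved less. Mir145a had a log2 ratio of 0.45 (adjusted p = 0.000174), Mir126a 0.34 (adjusted p at 1e-300, the lowest written) and Mir143 0.22 (adjusted p = 7.92e-51), all by the exact binomial test and all within the middle 90% of genes. Mir221 had 0.16 (adjusted p = 0.0299), and with unscaled totals 0.02 (adjusted p = 0.921). Mir222 had 0.06 with TMM and -0.082 with unscaled totals and was called under neither. Unscaled totals shift the median of all genes from 0.01 to -0.14, and that scaling gave 5 genes of the group higher and 0 lower, beside 67 higher and 155 lower among all genes.

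**Figure D4:**
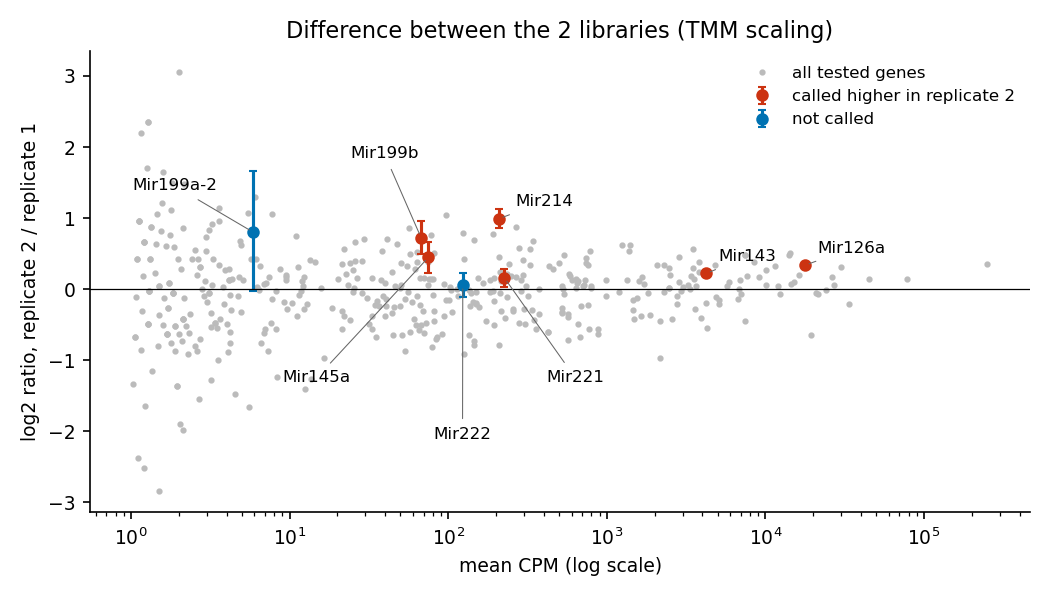
Log2 ratio of replicate 2 to replicate 1 (TMM scaling) against mean CPM for all 466 tested genes (grey) and the 8 tested genes of the group, called higher (red) or not called (blue), with exact 95% intervals of counting error. Mir214 at 0.99 and Mir199b at 0.73 lie above the other called genes of the group, and Mir222 lies at 0.06.

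The ratio of 2 neighbours within a library does not depend on its scaling, so the 3 pairs were compared by that ratio. No pair passed a two-sided Fisher's exact test between the libraries adjusted over the 3 pairs, and 1 had an unadjusted p under 0.05. The ratio of Mir145a to Mir143 in replicate 2 was 1.17 times that in replicate 1 (p = 0.0445, adjusted p = 0.133 by the exact test). For Mir199a-2 to Mir214 it was 0.881 times (adjusted p = 0.672, exact test) and for Mir222 to Mir221 0.935 times (adjusted p = 0.561, exact test). A p above the threshold does not show that the ratios were equal.

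Other miRNA genes linked to vessels were more abundant as a list than the group. The list of 21 symbols includes Mir23a, Mir27a and Mir24-2 of a cluster enriched in endothelial cells, the angiogenesis gene Mir130a and the hypoxia gene Mir210. Its symbol Mir92a-1 matched no row. A gene named Mir92-1, left out of the list's values, had 10829 and 10162 counts (log2 ratio 0.34, called higher). In all, 17 symbols of the list were matched to a row. They held 6.32% of counts in replicate 1 and 6.63% in replicate 2, led by Mir130a at 26107 and 26687 CPM, Mir322 at 10702 and 12185 CPM, Mir23b at 7586 and 7816 CPM and Mir23a at 6612 and 8332 CPM. Many are also expressed in neural cells. Of the 17, 10 were called higher in replicate 2, 4 lower and 3 neither way, with a median log2 ratio of 0.19. With unscaled totals 9 were higher and 4 lower, with a median of 0.04. The shares of all tested genes called were 23.4% higher and 21.9% lower with TMM. The genes lower under both scalings were Mir139, Mir132, Mir10a and Mir10b, named after their values were seen.

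The calls among other mesenchymal genes depended on the scaling. Of 11 genes, which include Mir21a, a miRNA of fibroblasts under stress, and Mir140 of cartilage, 10 were tested, with 6 called higher, 0 lower and a median log2 ratio of 0.22, beside 23.4% higher and 21.9% lower among all tested genes. With unscaled totals 4 were higher and 1, Mir31, was lower, with a median of 0.07. They held 1.94% and 2.12% of counts, led by Mir708 at 8989 and 9130 CPM, Mir21a at 3669 and 3920 CPM, Mir22 at 3302 and 3687 CPM and Mir140 at 2978 and 3991 CPM. Counts of bulk tissue do not show which cells the reads of this list came from. Mir145b, a gene elsewhere on chromosome 18, had 0 counts in both libraries.

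Markers of other cell types were compared in the same libraries, and their part in the differences above was not tested. The counts called below stand beside 23.4% higher and 21.9% lower among all tested genes with TMM. The blood list held 0.0524% of counts in replicate 1 and 0.0511% in replicate 2, with 2 of 6 tested genes higher (Mir223 of myeloid cells and erythroid Mir144) and 1 lower (erythroid Mir451a). Mir451a had 239 and 152 CPM, Mir223 96.6 and 151 CPM, Mir155 69.96 and 70.7 CPM and Mir144 42.7 and 69.97 CPM, so blood genes did not move one way. Mir142b was at 0 in both libraries. No row was matched for Mir142 or Mir486b, so their levels are not known here. The epithelial list held 0.322% and 0.389%, with 6 of 7 genes higher and 1 lower, led by Mir429 at 1170 and 1634 CPM, Mir203 at 1343 and 1332 CPM, Mir200b at 280 and 408 CPM and Mir200c at 236 and 321 CPM. Mir203 had a log2 ratio of 0.13 with TMM and -0.012 with unscaled totals, under which 4 epithelial genes were called higher (Mir429, Mir200a, Mir200b and Mir200c) and 1 lower. The median log2 ratio of the epithelial list was 0.50 with TMM and 0.36 with unscaled totals, above the group's 0.39 and 0.25. With TMM the median was 0.11 for the blood list, -0.69 for the striated muscle list and -0.10 for the neural list.

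The striated muscle list held 0.00468% and 0.00387%, with Mir206 at 18.8 and 25.2 CPM, Mir208b at 22.5 and 10.3 CPM, Mir208a at 2.57 and 1.44 CPM and Mir499 at 2.37 and 1.202 CPM. Of 4 tested muscle genes 1 was higher and 1 lower, or 0 and 1 with unscaled totals, and Mir1a-1, Mir133a-1 and Mir133a-2 were at 0 in uniquely placed reads. The neural list, which checks the labelled tissue, held 2.31% and 2.095% of uniquely placed reads. Multi-mapping reads are not in this share, and 6 of the 8 genes of the list with a matched precursor share 22 bases with another precursor. The genes of Mir124a had between 4 and 25 counts in a library and Mir9-2 had 22 and 12, so the list's share cannot be set against that of the group. Its genes were led by Mir137 at 13239 and 11457 CPM, Mir128-1 at 3495 and 4125 CPM, Mir128-2 at 1921 and 2208 CPM and Mir153 at 2217 and 1552 CPM. Of its 11 tested genes, 2 were called higher in replicate 2 and 4 lower. The muscle and neural counts stand beside 23.4% higher and 21.9% lower among all tested genes with TMM.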

How the data were processed

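MicroRNA-seq was made from 2 pools of embryonic day 16.5 mouse forebrain. The authors deposited raw read counts per gene, without strand and for each strand, on mm10 with GENCODE M4, per the deposited file descriptions. Per the labels, the size range is below 30. No aligner, counter or trimming step is given in the sources used here. Rows of unassigned reads, 62.1% of reads in replicate 1 and 61.4% in replicate 2, were kept out of totals and tests. The gene-strand column was used, which held 98.1% and 98.3% of gene counts.

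CPM is relative to the gene-strand total. TMM factors (edgeR 4.0.16, R 4.3.3) were computed on genes with at least 10 counts in sum, which were tested with an exact binomial test and Benjamini-Hochberg adjustment (SciPy 1.17.1). Log2 ratios add 0.5 to each count. DESeq2 1.42.0 size factors were an alternative. The exact binomial test was run on simulated counts that held counting error alone. That run had no TMM step and no spread between pools, so it does not bear on either. Symbols and positions come from GENCODE M21, the same assembly, with 1894 of 1973 identifiers matched. Sequences come from RefSeq GRCm38.p6.

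The genes and lists were chosen with earlier results of these data known. Named genes are all 9 genes, their neighbours within 10 kb or on the other strand, up to 4 genes per list by mean CPM, genes with a shared seed and the 3 genes nearest to Mir126a. Other genes named in the lists were chosen after their values were seen. The labels give the pools separate biosample records, and p-values measure only the counting difference between these 2 libraries.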

Additional observations from a re-analysis of the deposited data

Results flagged for a closer look

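Reads on the strand opposite Mir126a lie outside the gene-strand counts and exceeded the level of 3 counts. There were 5 such reads in replicate 1 and 4 in replicate 2, beside 84053 and 79012 on the gene strand. GENCODE M21 and RefSeq place Mir126b on that strand, within the same span, and Mir126b has no row of its own among those used here. The other 8 genes had 0 opposite-strand reads in both libraries.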

How the results depend on the processing

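With all reads as the denominator, unassigned reads included, the share of the 9 genes was 0.855% in place of 2.28%, since that total holds reads placed on no gene. Leaving out 1 library gave 2.14% to 2.41% for that share, 1.63 to 1.904 counts of Mir145a per 100 of Mir143, 2.68 to 3.04 of Mir199a-2 per 100 of Mir214 and 52.8 to 56.5 of Mir222 per 100 of Mir221. The log2 ratio of Mir222 turned to -0.082 with unscaled totals, and neither value was called. The call of Mir221 was lost with unscaled totals and with TMM factors from all genes (log2 ratio 0.13, adjusted p = 0.0733 by the exact binomial test). The latter alternative, like the order by length, was chosen after the data were seen, and the main factors follow the filter used for testing. The count of the group's genes called was 5 or 6 under the 5 alternatives, none lower, and Mir126a, Mir143, Mir145a, Mir199b and Mir214 were called higher under each. The count over all genes lay between 207 and 225. With 2 libraries, leaving out 1 returns the value of the other and is no test of stability. Mir199a-1 and Mir199a-2 had 4 and 53 counts in sum, and low depth and the loss of multi-mapping reads cannot be told apart there.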
